A study of Mus musculus with 27 samples.

Results

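The mitochondrial ribosome translates the few oxidative phosphorylation subunits that mitochondrial DNA encodes. Its RNAs come from mitochondrial DNA, whereas its proteins are encoded in the nucleus, made in the cytosol and imported. Some of them descend from bacterial ribosomal proteins and others have no bacterial counterpart, so that the proteins of both subunits have to be supplied together by nuclear transcription. The genes described here are those mitochondrial ribosomal proteins whose symbol begins with Mrpl or Mrps followed by a digit, which by name belong to the large and the small subunit. This rule found 74 of the 18820 genes that had a transcript cluster with 1 gene symbol. Of these, 46 had an Mrpl and 28 an Mrps symbol. The rule reads the symbol alone, but the set was chosen with earlier results of these data known. The names are not exact in every case, since the products of Mrps30 and Mrps18a sit in the large subunit and that of Mrps36 has been assigned to the 2-oxoglutarate dehydrogenase complex. Mrpl24, Mrpl43, Mrpl53 and Mrps6 occurred only in clusters shared with another gene and were not analysed here.

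Liver RNA was measured in 27 male C57BL/6J mice aged 28 months, with 1 Affymetrix Mouse Gene 1.1 ST array per mouse, so that each mouse is a biological replicate. The C group (n = 8) received the AIN-93W control diet, the CR group (n = 5) a 30% calorie restriction and the MF group (n = 7) a medium-fat diet with 25% of its energy from fat, each from young adulthood on. The CR-MF group (n = 7) lived under calorie restriction until 24 months of age and then spent 4 months on the medium-fat diet, with portions raised stepwise over the first weeks before it was eaten freely. All mice were fasted and gavaged with a carboxymethyl cellulose solution before sacrifice, but CR mice alone received a part of their portion just ahead of the fast, and this difference from the other groups cannot be told apart from the restriction itself. Values are log2 intensities after Robust Multiarray Average (RMA) normalization, so that 1 unit is a factor of 2. The arrays had medians of 5.38 to 5.48 and pairwise correlations of 0.975 to 0.991. Plate and well row were inferred from unlabelled codes in the array names, and all statements on plates and rows rest on this reading. So read, plate G150 carried 6 C, 3 CR, 5 MF and 5 CR-MF mice. Plates G151 and G152 each had 1 per diet. By the same codes all C arrays lay in well row F, all MF arrays in row G and all CR-MF arrays in row H, while 3 CR arrays (plate G150) lay in row F and 2 (G151 and G152) in row G. Group and row can therefore not be told apart in comparisons of C, MF and CR-MF, of CR-MF with CR, or of MF with CR within plate G150. A filter on intensity and spread left 73 of the 74 genes and 13993 genes in all, and groups were compared in 1 limma fit over all arrays with Benjamini-Hochberg adjustment over the 13993 genes.

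Promoters are the part of these genes that the regulators of mitochondrial biogenesis act on, and the letters most often linked to them were therefore looked up first. In the RefSeq promoter table (build GRCm38.p6, 250 bases before to 50 bases after each annotated start), 65 of the 74 genes had an entry, the others being Mrpl4, Mrpl13, Mrpl15, Mrpl19, Mrpl38, Mrpl54, Mrps28, Mrps34 and Mrps35. Letters were searched on both strands. The core that GABP and other ETS factors recognise, CCGGAAG, occurred in 24 of the 65 genes (36.9%), against 9.93% of the 27025 genes in the table. The YY1 core AAGATGGC occurred in 12 (18.5%, against 3.19%) and the shorter NRF1 motif GCATGCGC in 8 (12.3%, against 3.05%). The full palindromic NRF1 core, which contains the shorter motif on both strands, was found in 3 genes (4.62%, against 1.07%). The E-box CACGTG, which MYC and related factors bind, occurred in 5 genes (7.69%), a share close to that of all genes (8.09%). A match is a run of letters and was not tested as a binding site. The 5 promoters below are shown because they belong to the genes called between groups that have an entry (Mrpl2 and Mrps21) or to the gene with the smallest p between MF and CR among those that carry the GABP/ETS, NRF1 or YY1 core (Mrpl58, Mrpl39 and Mrpl37). All were thus chosen after their values were seen, and they are printed 5′ to 3′ along the gene with the matches in capitals.
Mrpl2 promoter, chr17:46645971-46646270 (+ strand): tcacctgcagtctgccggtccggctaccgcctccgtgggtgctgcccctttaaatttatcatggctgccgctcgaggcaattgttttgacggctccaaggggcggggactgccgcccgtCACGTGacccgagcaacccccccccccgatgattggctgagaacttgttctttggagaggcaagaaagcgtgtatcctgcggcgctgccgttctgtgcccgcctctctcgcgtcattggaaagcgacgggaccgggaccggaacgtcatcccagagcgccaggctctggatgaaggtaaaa
Mrps21 promoter, chr3:95871465-95871764 (- strand): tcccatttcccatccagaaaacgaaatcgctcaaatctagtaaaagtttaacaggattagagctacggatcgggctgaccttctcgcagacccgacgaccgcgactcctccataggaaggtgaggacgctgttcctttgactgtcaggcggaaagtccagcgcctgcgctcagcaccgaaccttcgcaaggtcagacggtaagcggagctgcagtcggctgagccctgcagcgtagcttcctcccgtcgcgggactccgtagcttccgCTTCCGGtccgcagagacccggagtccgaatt
Mrpl58 promoter, chr11:115403502-115403801 (+ strand): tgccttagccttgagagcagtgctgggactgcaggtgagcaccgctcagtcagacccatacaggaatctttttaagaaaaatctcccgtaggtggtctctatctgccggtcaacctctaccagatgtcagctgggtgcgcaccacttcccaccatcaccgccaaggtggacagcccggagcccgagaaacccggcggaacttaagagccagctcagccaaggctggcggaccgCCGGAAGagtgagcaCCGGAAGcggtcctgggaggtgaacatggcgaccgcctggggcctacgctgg
Mrpl39 promoter, chr16:84735195-84735494 (- strand): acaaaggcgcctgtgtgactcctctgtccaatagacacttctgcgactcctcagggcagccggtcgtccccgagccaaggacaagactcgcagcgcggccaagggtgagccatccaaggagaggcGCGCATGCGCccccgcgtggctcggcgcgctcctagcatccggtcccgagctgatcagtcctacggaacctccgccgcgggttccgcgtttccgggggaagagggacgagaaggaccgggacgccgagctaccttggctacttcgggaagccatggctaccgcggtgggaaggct
Mrpl37 promoter, chr4:107066817-107067116 (- strand): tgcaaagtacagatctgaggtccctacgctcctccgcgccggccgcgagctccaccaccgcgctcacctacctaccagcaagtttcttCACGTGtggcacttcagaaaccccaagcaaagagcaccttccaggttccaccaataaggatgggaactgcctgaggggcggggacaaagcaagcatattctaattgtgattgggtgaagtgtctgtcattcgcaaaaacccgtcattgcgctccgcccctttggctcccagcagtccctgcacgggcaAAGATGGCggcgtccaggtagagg
In Mrpl58 the GABP/ETS core stands on the coding strand 17 and again 2 bases before the start, and in Mrps21 on the opposite strand 18 bases after it. Mrpl39 carries the NRF1 core 125 bases before its start. Mrpl37 has the YY1 core 26 bases after its start and an E-box 162 bases before it, and Mrpl2 has an E-box upstream of each of its 3 annotated starts, the first of which is shown. Mrpl14, Mrpl12 and Mrpl55, which stood beside Mrpl2 in the comparison of MF with CR, held none of the letters searched.

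The comparison of MF with CR asked how the genes differ between livers after lifelong medium-fat feeding and lifelong restriction. Expression of most mitochondrial ribosomal protein genes had a lower mean in MF, by small amounts, and few of them passed the test alone. Of the 73 genes, 61 (83.6%) had a lower mean in MF than in CR, against 51.4% of all genes tested. Their median log2 difference was -0.12, with a range from -0.52 to 0.15, while the median over all genes was -0.0068. Within diet groups the genes of the set varied together from mouse to mouse (median correlation of 0.387 between pairs). Counts of means in 1 direction, here and below, are therefore not counts of separate observations. At an adjusted p of 0.05, 2 of the 73 fell (Mrpl2 and Mrpl38) and none rose, where 2.62% of all genes fell and 2.8% rose, so the share of calls was near that of the array as a whole. At an unadjusted p of 0.05, 13 genes were lower (17.8%, against 11.2% of all genes) and none was higher (against 12.5%). The 95% confidence interval lay within 0.5 on the log2 scale (1.41-fold) of 0 for 70 of the 73 genes, and for 10122 of the 13993 genes tested. The others of the set were Mrpl14, Mrpl38 and Mrps27. This bound is wide beside the median difference of -0.12. Within well row G, which held 2 CR and all 7 MF mice, 67 of the 73 means were lower in MF (median -0.13, with 50.9% of all genes lower). These 2 CR mice were on plates G151 and G152, whereas 5 of the MF mice were on G150, so this comparison mixes plate with diet. In whole liver, fewer cells of a type and less RNA per cell cannot be told apart.

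**Figure D1:**
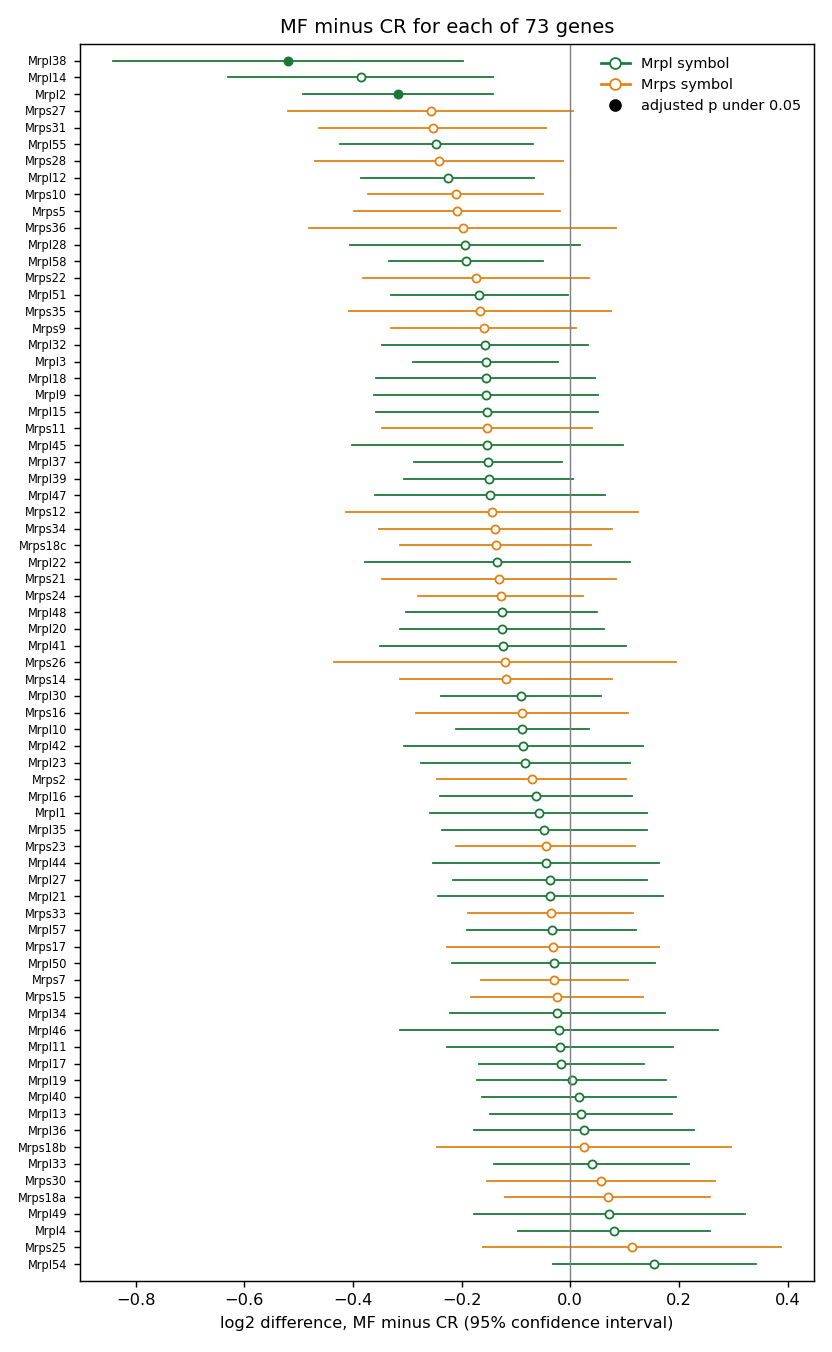
MF minus CR for each of the 73 genes that passed the filter, as the log2 difference in group means (points) with its 95% confidence interval (lines), ordered by size and coloured by symbol. Filled points passed an adjusted p of 0.05. 61 points lie below 0, and only those of Mrpl38 and Mrpl2 are filled.

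Mrpl2 (Entrez 27398, chromosome 17) encodes a protein near the peptidyl transferase centre of the large subunit, conserved from bacteria. Its log2 level was 7.36, 7.52, 7.61, 7.62 and 7.63 in the 5 CR mice. In MF mice it ran from 7.04 over a median of 7.21 to 7.42. All CR mice except B4_7, with 7.36, exceeded every MF mouse. C mice ranged from 7.01 to 7.46 (median 7.34) and CR-MF mice from 7.27 to 7.61 (median 7.41), so both overlapped MF and CR. Mrpl2 fell by 0.32 from CR to MF (standard error 0.08, 1.25-fold, limma adjusted p = 0.0293). Its adjusted p in CR against C was 0.0862, for a difference of 0.26. The call was lost without the CR mice B4_1, B4_3 or B4_13 or the MF mice C4_1, C4_7 or C4_11 (adjusted p between 0.0165 and 0.0769 over the 12 mice left out in turn) and within plate G150, where the difference was -0.29 (adjusted p = 0.169).

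Mrpl38 (Entrez 60441, chromosome 11), a large-subunit protein with no bacterial counterpart, had log2 levels of 8.94, 8.95, 9.12, 9.60 and 9.75 in CR. In MF it ran from 8.52 over 8.82 to 8.97. The CR mice B4_13 and B4_3, those of plates G151 and G152, stood above the other 3, and the lowest 2 lay within the MF range. Mrpl38 fell by 0.52 from CR to MF (standard error 0.16, 1.43-fold, limma adjusted p = 0.0492). The difference was -0.40 without B4_3 (adjusted p = 0.158) and -0.44 without B4_13 (adjusted p = 0.135). Within plate G150 the difference was -0.28 (adjusted p = 0.407), and with plate as a block the adjusted p was 0.0649. The call held without B4_5, B4_7 or C4_13 and was lost without any other of the 12 mice.

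Of the genes that did not pass, Mrpl14 (chromosome 17), a conserved protein at the interface of the subunits, came nearest. Its log2 levels were 8.71, 8.76, 8.80, 9.02 and 9.13 in CR, and 8.12 to 8.83 with a median of 8.46 in MF. Only 2 MF mice reached the CR range. The log2 difference was -0.39 (standard error 0.12, adjusted p = 0.0546), and the value in C (8.51 ± 0.24, SD, n = 8) was close to that in MF (8.50 ± 0.25, n = 7). Mrpl55, specific to mitochondria, differed by -0.25 (adjusted p = 0.0865). Mrpl12, the stalk protein that in human cells also binds the mitochondrial RNA polymerase, differed by -0.23 (adjusted p = 0.0819). In Mrpl2, Mrpl14, Mrpl55 and Mrpl12 alike, the CR mouse B4_7 had the lowest level of its group.

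**Figure D2:**
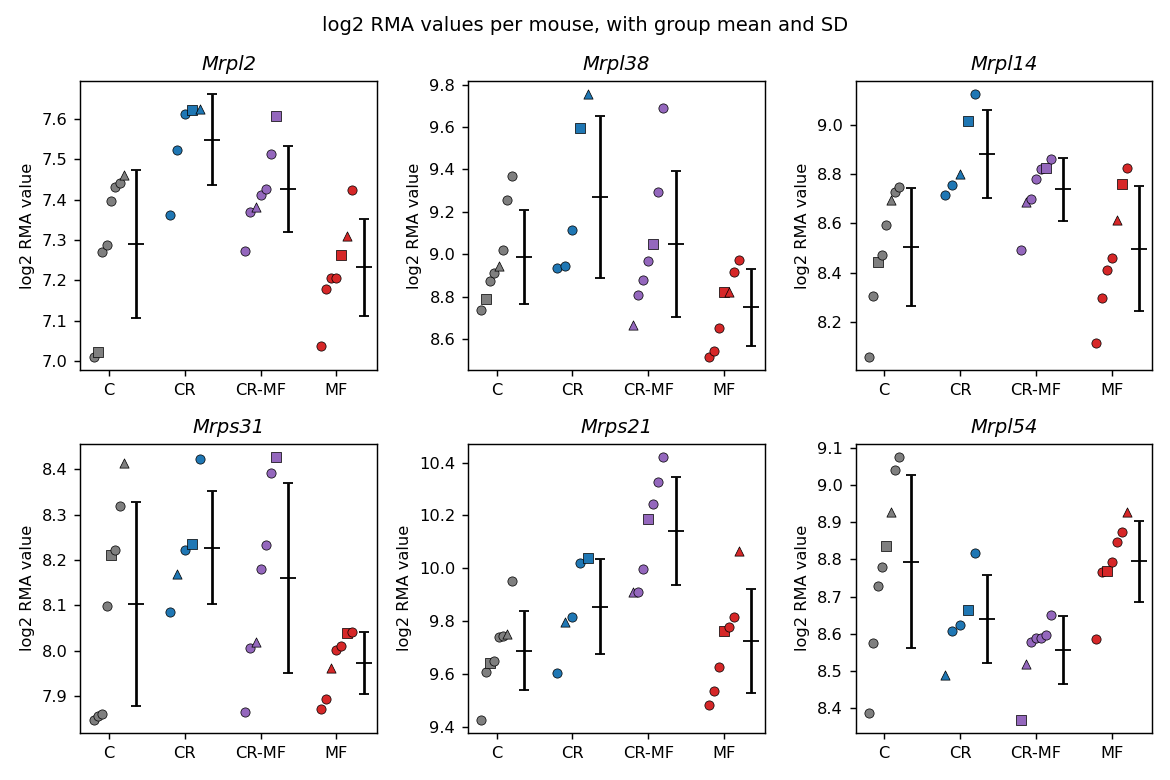
log2 RMA values of 6 genes in each of the 27 mice by diet group, with the group mean and SD (n = 8, 5, 7 and 7 for C, CR, CR-MF and MF); circles are plate G150, squares G151 and triangles G152. Mrps31 shows no overlap between MF and CR, and Mrps21 is highest in CR-MF.

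Among the Mrps genes none passed the test. The 4 with the largest differences from CR to MF were Mrps27 (-0.26, adjusted p = 0.222), Mrps31 (-0.25, adjusted p = 0.133), Mrps28 (-0.24, adjusted p = 0.185) and Mrps10 (-0.21, adjusted p = 0.106). Mrps31 was the only one of the 73 genes whose MF mice all lay below every CR mouse (1.37%, against 1.5% of all genes). Its log2 levels were 8.09, 8.17, 8.22, 8.24 and 8.42 in CR, and 7.87 to 8.04 with a median of 8.00 in MF. C mice spread over both ranges, from 7.85 to 8.41. Mrps5, whose counterpart in the worm Caenorhabditis elegans is known for longer lifespan upon knockdown, reached 8.53 ± 0.11 in the 5 CR mice and 8.32 ± 0.13 in the 7 MF mice (log2, SD). This difference of -0.21 had an adjusted p of 0.168.

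A few genes had a higher mean in MF than in CR, and none of these 12 passed at an unadjusted p of 0.05. The largest differences were those of Mrpl54 (0.15, adjusted p = 0.306), a mitochondria-specific protein, and Mrps25 (0.11, adjusted p = 0.643). Mrpl4 (0.08), Mrpl49 (0.07) and Mrpl33 (0.04) followed among the Mrpl genes, and Mrps18a (0.07), Mrps30 (0.06) and Mrps18b (0.03) among the Mrps genes. The direction of Mrps25 and Mrpl4 was lost without the CR mouse B4_5, at -0.032 and -0.0048. That of Mrpl33 was lost without B4_1 (-0.0058) and that of Mrps18b without B4_7 (-0.089) or the MF mouse C4_7 (-0.040). Quantile normalization turned Mrpl33 to -0.011 and median centring turned Mrps18b to -0.00052.

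Lower means were found in both subunits. Of the 45 Mrpl genes 37 had a lower mean in MF (median -0.09) and of the 28 Mrps genes 24 (median -0.13). The 44 genes with a bacterial counterpart had 37 lower means (median -0.09) and the 29 mitochondria-specific genes 24 (median -0.13). The difference between these classes was not tested. Mrpl52, which did not pass the filter on spread, lay at 9.54, 9.58, 9.60, 9.67 and 9.74 in the CR mice and at 9.35 to 9.65 with a median of 9.52 in MF on the log2 scale. Of the 12 genes with several transcript clusters, 11 had a lower mean in MF in every cluster, Mrps30 being the exception. These clusters were read on the same 27 arrays and are no independent check. Their correlation with the cluster used ran from -0.262 (Mrps30) to 0.982 (Mrpl23). For the other cluster of Mrpl10 it was -0.0503, with a difference of -0.023 between MF and CR. The other clusters of Mrpl42 and Mrpl47 had log2 means of 4.44 and 4.91, near the filter limit of 4.32. A shared sign in such clusters says little. Some of these clusters may stem from copies of a gene elsewhere in the genome, and the signal of a gene and of its copies cannot be told apart.

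The deviation of each mouse, taken as the median over the 73 genes of its log2 value minus the mean of the gene over all arrays, summarises the set. Its mean was 0.071 ± 0.089 in the 5 CR mice, 0.0094 ± 0.102 in the 7 CR-MF mice, -0.014 ± 0.108 in the 8 C mice and -0.032 ± 0.093 in the 7 MF mice (SD). The 5 CR mice had -0.083, 0.087, 0.098, 0.112 and 0.142. The lowest of these, B4_7, was apart from the rest and lay among the lower MF mice. MF mice ran from -0.131 over a median of -0.064 to 0.077, with 4 mice below -0.06 and 3 above 0.04, CR-MF mice from -0.157 over 0.0065 to 0.137, and C mice from -0.136 over -0.031 to 0.190. The 4 groups overlapped, and the pooled SD within groups was 0.098. The difference between MF and CR was -0.108 within plate G150, -0.065 in G151 and -0.052 in G152, the last 2 with 1 mouse of each group. The difference of CR-MF from CR was -0.022, -0.0057 and -0.255 in the same plates.

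**Figure D3:**
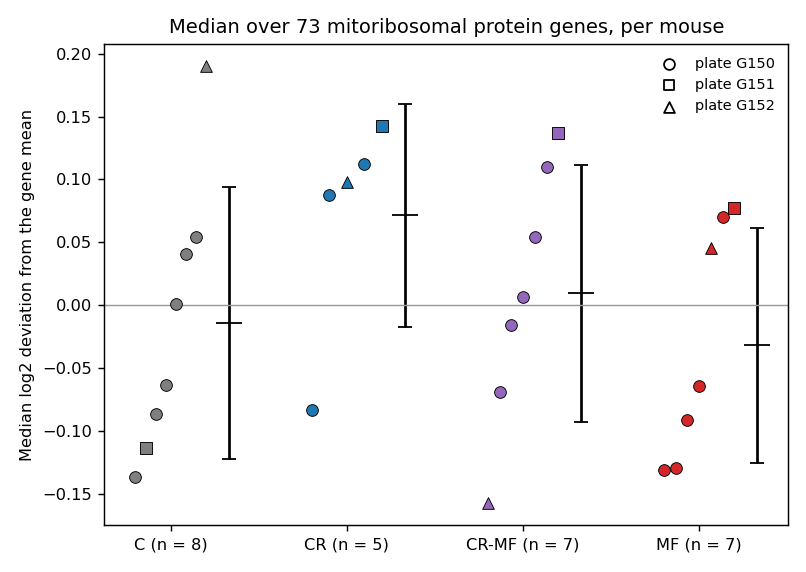
Median over the 73 genes of the log2 deviation from the gene mean (vertical axis), 1 point per mouse by diet group and plate, with the group mean and SD. 4 of the 5 CR mice lie above 0.08, while the ranges of all 4 groups overlap.

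Read by the order of the 4 group means, the genes again placed CR first. CR had the highest mean of the 4 groups in 41 of the 73 genes (56.2%, against 35% of all genes) and the lowest in 4 (5.48%, against 32.1%). MF had the lowest mean in 32 (43.8%, against 25.5%) and the highest in 2 (2.74%, against 25.7%). CR-MF was highest in 21 (28.8%, against 22.7%) and lowest in 21 (28.8%, against 21.6%), and C highest in 9 (12.3%, against 16.6%) and lowest in 16 (21.9%, against 20.8%).

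**Figure D4:**
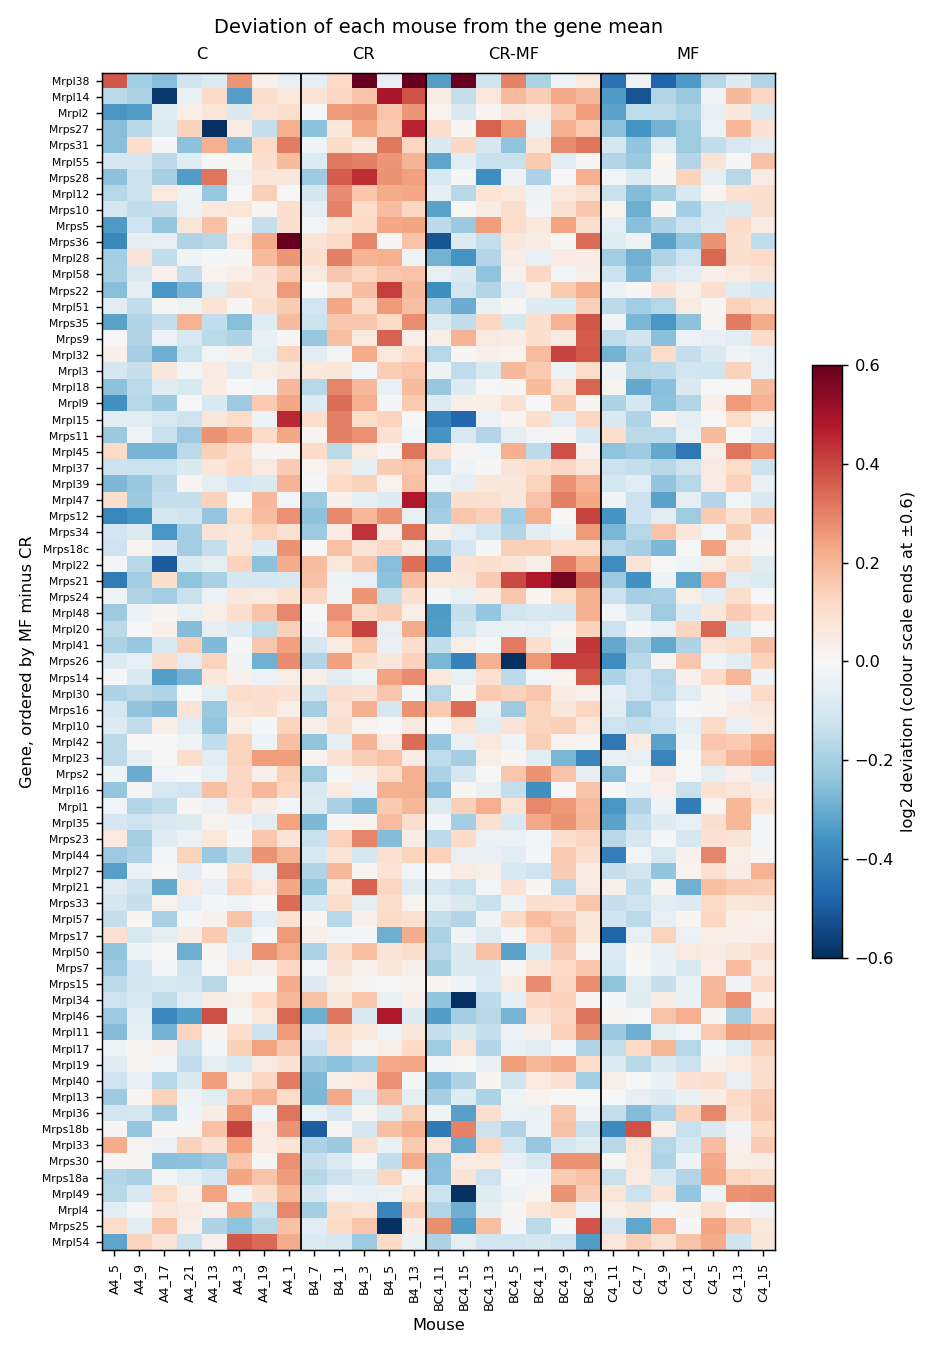
log2 deviation of each mouse (columns, by diet group and ordered within it by the median over the genes) from the mean of each gene over all arrays (rows, ordered by the difference from CR to MF); red is above and blue below the mean. Single mice such as C mouse A4_1 (red) and CR-MF mouse BC4_11 (blue) are shifted over most genes, with values of 0.190 and -0.157 for the median.

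The genes varied together from mouse to mouse within diet groups. After subtraction of the group means, the median correlation between 2 of the 73 genes over the 27 mice was 0.387, and 95.1% of the 2628 pairs were above 0. The same value was 0.333 over 52 cytosolic ribosomal protein genes and 0.0019 over all pairs of genes tested. The points share their arrays and normalization, so this describes these 27 livers. C mouse A4_1 lay above the gene mean in 69 of the 73 genes and CR mouse B4_13 in 62, whereas C mouse A4_5 and MF mouse C4_11 did so in 10 each. Mrps7, Mrps33 and Mrpl39 followed the other genes most closely (mean r of 0.517, 0.506 and 0.504). Mrps25, Mrpl38, Mrpl54 and Mrpl33 did so least (0.087, 0.116, 0.134 and 0.159), and Mrpl38, called between MF and CR, therefore varied largely apart from the set.

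The comparison of CR-MF with CR asked what 4 months on the medium-fat diet changed in restricted mice. Of the 73 genes 49 (67.1%) had a lower mean in CR-MF than in CR, against 50.2% of all genes, with a median log2 difference of -0.049 (all genes -0.00092). This median was -0.084 without the CR mouse B4_7 and -0.024 without the CR mouse B4_13. None passed at an adjusted p of 0.05 by limma or by the intensity-based moderated statistic, where limma called 0.6% of all genes. At an unadjusted p of 0.05, 11 were lower (15.1%, against 6.9%) and 1, Mrps21, was higher (1.37%, against 5.4%). The lowest were Mrps28 (-0.29, adjusted p = 0.252), Mrpl55 (-0.28, adjusted p = 0.147) and Mrpl28 (-0.26, adjusted p = 0.262). On the log2 scale Mrpl55 lay at 7.51, 7.80, 7.86, 7.90 and 7.91 in the CR mice, at 7.28 to 7.76 (median 7.53) in CR-MF and at 7.37 to 7.77 (median 7.59) in MF. The highest were Mrps21 (0.29, adjusted p = 0.222), Mrpl1 (0.20, adjusted p = 0.418) and Mrpl19 (0.15, adjusted p = 0.502). For 70 of the genes the 95% confidence interval stayed within 0.5 on the log2 scale of 0, as for 11025 of the 13993 genes tested. Those of Mrpl38, Mrps21 and Mrps28 reached farther.

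Between CR-MF and MF, which ended on the same diet, 1 of the 73 genes passed, Mrps21, which rose (1.37%, against 0.55% of all genes that were higher). At an unadjusted p of 0.05, 10 genes were higher in CR-MF (13.7%, against 6.76%) and 1, Mrpl54, was lower (1.37%, against 7.99%). The median difference was 0.043 and 45 means were higher in CR-MF (61.6%, against 49.5%), and 1 mouse could move this median to 0.011 (without the MF mouse C4_11) or 0.072 (without the CR-MF mouse BC4_11). Mrps21 (Entrez 66292, chromosome 3) encodes a small-subunit protein, the counterpart of bacterial S21. Its log2 level ran from 9.91 over a median of 10.19 to 10.42 in CR-MF, from 9.48 over 9.76 to 10.06 in MF and from 9.43 over 9.69 to 9.95 in C, and was 9.60, 9.80, 9.82, 10.02 and 10.04 in CR. Every CR-MF mouse exceeded all MF mice but C4_5. Mrps21 exceeded its MF level 1.34-fold in CR-MF (log2 difference 0.42, standard error 0.10, limma adjusted p = 0.0221) and its C level 1.37-fold (0.45, standard error 0.09, adjusted p = 0.0255). Within plate G150 these differences were 0.53 (adjusted p = 0.0339) and 0.49 (adjusted p = 0.0518). The first call was lost without the CR-MF mice BC4_1, BC4_5 or BC4_9 or the MF mice C4_1 or C4_7 (adjusted p up to 0.0683), and the second without any of the same 3 CR-MF mice (up to 0.0710). Because these arrays filled a well row of their own, the part of the row cannot be told apart from the diet. On the same arrays Rpl38, a cytosolic ribosomal protein, fell by 0.36 from MF to CR-MF (adjusted p = 0.00443).

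Mrpl54, which did not pass, was the gene of the set lowest in CR-MF against MF (-0.24, adjusted p = 0.156). Its log2 level ran from 8.37 over 8.59 to 8.65 in CR-MF, from 8.59 over 8.79 to 8.93 in MF and from 8.39 over 8.81 to 9.08 in C, and was 8.49, 8.61, 8.62, 8.66 and 8.82 in CR. All but 1 of the MF mice lay above every CR-MF mouse, while the C mice covered both ranges. Mrps27 (0.27, adjusted p = 0.262) and Mrpl38 (0.30, adjusted p = 0.326) were the highest after Mrps21, and Mrpl34 (-0.17) and Mrpl23 (-0.16) the lowest after Mrpl54. Without the CR-MF mouse BC4_15 the differences of Mrpl38 and Mrpl34 were 0.19 and -0.084.

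The C group served as the reference for the other diets. CR is common to the comparisons above and to that with C, so its position in one is not independent of the others. In CR 59 of the 73 genes (80.8%, against 53.9% of all genes) had a higher mean than in C, with a median difference of 0.08 (all genes 0.02). None passed at an adjusted p of 0.05 by limma or the intensity-based moderated statistic (1.57% of all genes did). At an unadjusted p of 0.05, 12 were higher (16.4%, against 9.27%) and none was lower (against 10.5%). Mrpl14 differed most (0.38, standard error 0.12, adjusted p = 0.0769), before Mrpl38 (0.28, adjusted p = 0.308) and Mrps28 (0.28, adjusted p = 0.147). Within plate G150 the difference of Mrpl38 was -0.03. The lowest were Mrpl54 (-0.15), Mrpl33 (-0.14) and Mrps18b (-0.13), the last at -0.011 without the CR mouse B4_7. Within well row F, which held 3 CR and all 8 C mice, 52 of the 73 means were higher in CR (median 0.050, with 50.9% of all genes higher). The 3 CR mice were all on plate G150, but only 6 of the C mice.

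CR-MF and C differed in Mrps21 alone among the 73 genes at an adjusted p of 0.05 (1.37%, against 0.136% of all genes that were higher). At an unadjusted p of 0.05, 8 were higher (11%, against 5.52%) and 4 lower (5.48%, against 5.9%), the latter being Mrpl17, Mrpl23, Mrpl33 and Mrpl54. Mrps27 (0.26) and Mrpl14 (0.23) were the highest after Mrps21, and Mrpl54 (-0.24), Mrpl23 (-0.20) and Mrpl33 (-0.19) the lowest. Mrps9, a conserved small-subunit protein, was the only gene of the set whose CR-MF mice all exceeded all C mice (1.37%, against 0.193% of all genes). Its log2 level was 6.65 to 6.98 (median 6.67) in CR-MF and 6.43 to 6.63 (median 6.55) in C, a difference of 0.21 with an adjusted p of 0.266.

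MF and C did not separate in any gene on the array at an adjusted p of 0.05 (0% of all genes by limma). None of the 73 genes passed at an unadjusted p of 0.05, at which 2.67% of all genes were higher and 1.3% lower in MF. The median difference was -0.02 with 49 lower means (67.1%, against 48.7% of all genes). Without the C mouse A4_1, the highest of its group, the median turned to 0.016 and 27 means were lower. Mrpl38 (-0.24), Mrps31 (-0.13) and Mrpl47 (-0.11) had the lowest differences, and Mrpl20 (0.09), Mrps22 (0.08) and Mrpl46 (0.08) the highest. For all genes of the set except Mrpl38 the 95% confidence interval lay within 0.5 on the log2 scale of 0, as for 12152 of the 13993 genes tested.

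**Figure D5:**
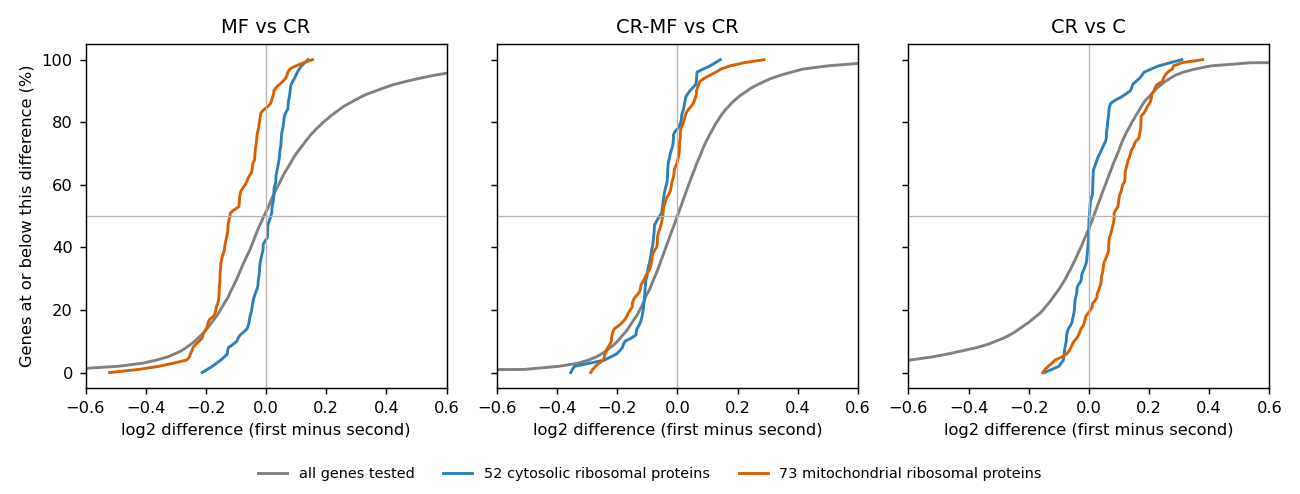
Share of genes (%) at or below a given log2 difference for 73 mitochondrial ribosomal proteins, 52 cytosolic ribosomal proteins and the 13993 genes tested, in 3 comparisons (the axis ends at 0.6 in both directions). For MF against CR the mitochondrial curve crosses 50% to the left of the others, with a median of -0.12 against 0.02 for the cytosolic genes.

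Cytosolic ribosomal proteins, which translate all nuclear transcripts, were set beside their mitochondrial counterparts. Of 72 such genes 52 passed the filter. Between MF and CR none was called (5.42% of all genes were), 22 had a lower mean (against 51.4% of all genes) and the median difference was 0.02. Between CR and C the median was 0.0013. Between CR-MF and CR 40 of the 52 had a lower mean (median -0.06), against 50.2% of all genes. The mitochondrial genes had a median of -0.049 in that comparison. Only Rpl38 fell, where 0.364% of all genes did. Cytosolic genes also had mostly lower means in CR-MF against MF (41 of 52, median -0.07) and against C (37 of 52, median -0.06). The mitochondrial medians there were 0.043 and 0.034.

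Most genes that serve the mitochondrial ribosome also had a lower mean in MF than in CR. Of 26 tested genes of its assembly and rRNA modification, 21 had a lower mean in MF (median -0.10) and 3 fell at an adjusted p of 0.05, where 51.4% of all genes had a lower mean and 2.62% fell. These lists are short, so that 1 call is already a larger share than that. These were Nsun4, a methyltransferase that joins the subunits (-0.44, standard error 0.09, adjusted p = 0.00554), Mrm1, a ribose methyltransferase of the large rRNA (-0.29, adjusted p = 0.0349), and Lrpprc, which stabilises mitochondrial mRNAs (-0.28, adjusted p = 0.028). Nsun4 also rose from C to CR (0.42, adjusted p = 0.0141), as did Vars2 (0.47, adjusted p = 0.0203), a synthetase, and 0.765% of all genes. Among 14 translation factors 1 fell, Oxa1l, which inserts the nascent proteins into the inner membrane (-0.26, adjusted p = 0.033). Among 19 mitochondrial aminoacyl-tRNA synthetases 2 fell, Vars2 (-0.48, adjusted p = 0.00909) and Fars2 (-0.27, adjusted p = 0.0456). Among 18 genes of protein import and mitochondrial mass, 16 had a lower mean and 2 fell, the import motor proteins Hspa9 (-0.28, adjusted p = 0.0233) and Timm44 (-0.27, adjusted p = 0.0468). Dap3, Chchd1 and Ptcd3, mitoribosomal proteins under other symbols, were not called. None of 10 genes of mitochondrial transcription and DNA maintenance was called, and Tfam, which packages and transcribes mitochondrial DNA, differed by -0.28 (adjusted p = 0.211). No gene of these lists rose from CR to MF.

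Of the 12 regulators of mitochondrial biogenesis, 11 were tested and 4 fell from CR to MF, where 2.62% of all genes fell. Of the 11, 5 had a higher mean in MF, and the median was -0.0086. The coactivator PGC-1α, encoded by Ppargc1a, averaged 9.21 ± 0.46 in the 5 CR mice against 8.17 ± 0.29 in the 7 MF mice, 8.16 ± 0.16 in the 7 CR-MF mice and 8.24 ± 0.38 in the 8 C mice (log2, SD). It was 2.06-fold lower in MF (adjusted p = 0.00236), fell by 1.05 from CR to CR-MF (adjusted p = 0.0098) and rose by 0.97 from C to CR (adjusted p = 0.0091). Of all genes, 0.364% fell from CR to CR-MF and 0.765% rose from C to CR. Ppargc1b, its relative, fell by 0.65 from CR to MF (adjusted p = 0.00875), the nuclear receptor Esrra, with which both act, by 0.38 (adjusted p = 0.0356), and the mitochondrial deacetylase Sirt3 by 0.47 (adjusted p = 0.0172). The factors whose cores were looked up in the promoters were not called: Nrf1 differed by 0.14 (adjusted p = 0.421), Gabpb1 by 0.07, Gabpb2 by -0.0086 and Yy1 by 0.03. Gabpa, the DNA-binding subunit of GABP, did not pass the filter, with log2 means of 8.71 ± 0.11 in the 5 CR mice and 8.63 ± 0.09 in the 7 MF mice (SD). Pprc1 (0.08), Myc (0.23) and Mycn (-0.28) were not called either.

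Of the 6 measured markers of recruited macrophages 3 (Gpnmb, Ccr2 and Trem2) rose from CR to MF, where 2.8% of all genes rose. The summed intensity of the list was 479 to 589 in CR and 673 to 1412 in MF, without overlap. Of 8 hepatocyte markers 4 passed the filter, and 1 of these had a higher mean in MF. Tat (-0.46, adjusted p = 0.015) and Cps1 (-0.29, adjusted p = 0.0287) fell, where 2.62% of all genes fell. The sum of the 8 was 65958.5 to 76326 in CR and 62334 to 66806 in MF. No marker of either list was below an intensity of 20 on every array. Cps1 is itself a mitochondrial enzyme. Themis (T cells), Pdgfrb (stellate cells) and Cidea, listed as an adipocyte marker, also rose in MF, and no marker of the Kupffer cell, B cell, endothelial, cholangiocyte, neutrophil and erythroid lists was called between MF and CR. In CR against C the macrophage markers Ccr2, Trem2 and Lgals3 and the T cell marker Themis were called lower in CR, as were 0.808% of all genes. The summed macrophage intensity was 652 to 2087 in C, above all CR mice. In CR-MF against MF the markers Cd9 (recruited macrophages), Themis and Epcam (cholangiocytes) were called lower in CR-MF, as were 0.893% of all genes. The macrophage sum of 467 to 1530 in CR-MF overlapped that of MF. The part of the cell composition in the differences of the mitochondrial ribosomal proteins was not tested.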

How the data were processed

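Liver RNA of 27 male mice (8 C, 5 CR, 7 CR-MF and 7 MF) was hybridised to Affymetrix Mouse Gene 1.1 ST arrays. The authors deposited log2 intensities, 1 per transcript cluster and array, made with Robust Multiarray Average according to the submitters' processing notes. Precision is limited by array signal and by how many arrays there are. The methods of the study define probe sets by Entrez ID, whereas the deposited table holds the clusters of the manufacturer, and its gene set therefore differs. Symbols came from the annotation of the array platform, and all 74 members matched the RefSeq table of GRCm38.p6 by gene ID. Where several clusters stood for a gene, that of highest mean level was taken, and clusters listing more than 1 symbol, or no symbol, were left out.

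Following the methods of the study, a gene was tested if 5 or more arrays exceeded an intensity of 20 and its interquartile range on the log2 scale exceeded 0.1. Group means were compared in R 4.3.3 with limma 3.58.1 (lmFit and trended eBayes, two-sided, with 23 residual degrees of freedom). Benjamini-Hochberg adjustment covered all 13993 genes, and called means an adjusted p under 0.05. The fit was run on simulated data in which the noise was independent between genes. That setting had no plates, no rows and no genes varying together, so it does not speak to shifts shared by the set. No test was made over the members as a set. Figures were drawn with matplotlib 3.10.9.

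The members, lists, motifs and markers were chosen with earlier results of these data known. Named members are those called in any comparison, the 4 largest rises and falls per subunit between CR and MF and the 3 largest in each other comparison; in the other lists, genes called or of smallest p were named, and all regulators of biogenesis. Alternatives were quantile normalization, median centring, no filter, an intensity above 100, no trend, the intensity-based moderated statistic of the study, fits of the 2 groups compared, blocks for plate or animal number, the arrays of plate G150 alone, the mean of all clusters of a gene, and leaving out each mouse. Plate and row are read from codes in the array names, an inference, and the array name of C mouse A4_9 carries a suffix that is not explained.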

Additional observations from a re-analysis of the deposited data

Results flagged for a closer look

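For the median over the genes and for the 26 named genes, each in the 4 diet groups, there were 5 cases in which 1 mouse stood farther from the nearest other mouse than Dixon's 95% limit allows, which chance gives in about 1 of 20 groups of values. CR mouse B4_7 had a median deviation of -0.083, with the next CR mouse at 0.087, so that the gap was 0.756 of the range of the group. The same mouse had a log2 level of Mrpl55 of 7.51, with the next at 7.80. CR mouse B4_5 had a level of Mrps25 of 5.88, with the next at 6.47. In CR-MF, mouse BC4_15 had a level of Mrpl49 of 7.74 against 8.39 in the next, and mouse BC4_11 a level of Mrps10 of 8.69 against 8.99. Without B4_7, 4 genes were called between MF and CR (Mrpl2, Mrpl12, Mrpl38 and Mrpl55) and 64 means were lower, with a median difference of -0.13.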

How the results depend on the processing

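The median of the set between MF and CR stayed below 0 under every alternative run, from -0.146 (median centring) to -0.058 (replicate block by animal number), and from -0.133 to -0.086 without 1 mouse. Medians in the other comparisons were small enough for 1 mouse to move them by over 1.5 times: without 1 mouse they ran from -0.084 to -0.024 (CR-MF against CR), 0.011 to 0.072 (CR-MF against MF), 0.0093 to 0.058 (CR-MF against C, lowest without BC4_3) and -0.034 to 0.016 (MF against C), but 0.066 to 0.112 for CR against C. Counts of higher or lower means, a measure added after seeing the data, stayed within 1.5 times except for MF against C. Between MF and CR, 53 to 67 means were lower under the alternatives that kept all mice or plate G150, of up to 74 genes tested. The calls were less stable. Of the 2 calls between MF and CR, 1 was left (Mrpl2) without the filter, without the intensity trend, in the fit of the 2 groups alone, with plate as a block and with the mean of all clusters, and 0 in plate G150 alone; leaving out 1 mouse gave 0 to 4. For Mrpl38 the adjusted p was between 0.0335 and 0.158 without 1 mouse. The 1 call between CR-MF and MF became 0 in the fit of these 2 groups (adjusted p of Mrps21 = 0.0763), and 0 to 1 without 1 mouse. The 1 call between CR-MF and C became 0 in plate G150 alone, and 0 to 1 without 1 mouse. Lower means between MF and C numbered 27 to 55 without 1 mouse. Directions were lost for Mrpl33 (quantile normalization, -0.011), Mrps18b (median centring, -0.00052) and, between CR and C, Mrpl38 (plate G150, -0.028). Without 1 mouse the difference between MF and CR ran from -0.0058 to 0.088 for Mrpl33, from -0.0048 to 0.130 for Mrpl4, from -0.032 to 0.174 for Mrps25 and from -0.089 to 0.091 for Mrps18b. Mrpl14 passed between MF and CR with median centring (adjusted p = 0.0473) and with an intensity above 100 (0.0451). The causes were not tested.

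Animal numbers shared between groups were not treated as pairs. Residuals of mice with the same number correlated by 0.089 on average (range -0.255 to 0.357, 27 pairs). Those of mice with different numbers correlated by -0.0088 (range -0.562 to 0.528, 244 pairs). Correlations of this size do not settle whether the numbers pair the mice. With the number as a replicate block the calls fell to 0 in MF against CR, CR-MF against MF and CR-MF against C, and lower means between MF and C to 19 (median 0.030).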
